A study of Mus musculus with 30 samples.

Results

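The genes described here are 10 glutathione S-transferases, chosen by name: the alpha-class genes Gsta1, Gsta2, Gsta3 and Gsta4, the mu-class genes Gstm1, Gstm2 and Gstm5, and Gstp1 (pi class), Gstt1 (theta class) and Gsto1 (omega class). The choice by name used no measured value, but it was made with earlier results of these data known. They are 10 of the 29861 genes in the deposited table, and all 10 were among the 13644 genes tested. Gsta1 and Gsta2 share much of their transcript sequence, so their summed level is given as well.

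The libraries came from CCG-HTA-1, a line of primary fibroblasts grown from the tails of UMHet3 mice, which are a cross of several strains, and were taken at passage 4. Cells were exposed for 48 hours to 1 of 8 compounds, with 3 libraries each, or to the solvent DMSO, with 6 libraries, which makes 9 groups and 30 libraries. The donor mice were 5 to 8 weeks old per the labels, except that the label of Dihydrorotenone replicate 1 gives 8 to 11 weeks. All groups share the line, the strain, the passage and the medium, and the labels give no dose, so each compound stands for 1 unstated dose. Because there is 1 line, the replicates are cultures or libraries and not animals, and p-values measure only the spread between them. The compounds were Cardamonin, a plant chalcone, AEG 3482, Podofilox, a blocker of tubulin polymerisation, Antimycin A and Dihydrorotenone, inhibitors of the mitochondrial respiratory chain, Diphenyleneiodonium Cl, which blocks flavoenzymes, Clofilium tosylate, a potassium channel blocker, and a compound spelled BerberineA in the labels. The study's title asks which routes to cellular stress resistance depend on the transcription factor NRF2.

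Glutathione S-transferases join the tripeptide glutathione to reactive, electrophilic molecules, including products of lipid oxidation, drugs and plant compounds. The conjugates are then pumped out of the cell and trimmed to mercapturates. Many genes of the family are known targets of NRF2, which binds antioxidant response elements in DNA after electrophiles or oxidants release it from its inhibitor KEAP1, and the alpha and mu classes are best known for their induction in liver.

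Per gene, values are TPM (transcripts per 1000000 transcripts, corrected for transcript length by the authors), so that levels of different genes can be set side by side. Positions are whole genes in GRCm38 (GENCODE M21), and all members are protein-coding. Gsta4 (chr9:78182774-78209349), Gsta1 (chr9:78230656-78242684) and Gsta2 (chr9:78331018-78355788) lie near each other on chromosome 9, and Gsta3 lies apart on chromosome 1 (chr1:21240589-21265661). Gstm5 (chr3:107895821-107898686), Gstm2 (chr3:107981702-107986453) and Gstm1 (chr3:108012255-108017973) form a cluster on chromosome 3. Gstp1 (chr19:4035407-4037985) and Gsto1 (chr19:47854970-47864790) are on chromosome 19, and Gstt1 is on chromosome 10 (chr10:75783813-75798584).

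Promoter sequence was available from RefSeq (GRCm38.p6) for 9 of the 10 members, the exception being Gsta4. The 250 bases before the transcription start are shown for 5 members: Gsta1 and Gsta2, whose transcripts are near copies, and Gsta3, Gstm5 and Gstp1, the members whose window held an antioxidant response element core (TGACNNNGC) or an AP-1 site (TGANTCA). Capitals mark the matches to these motifs, and each line runs 5′ to 3′ on the gene's own strand.
Gsta1, chr9:78230419-78230668, plus strand: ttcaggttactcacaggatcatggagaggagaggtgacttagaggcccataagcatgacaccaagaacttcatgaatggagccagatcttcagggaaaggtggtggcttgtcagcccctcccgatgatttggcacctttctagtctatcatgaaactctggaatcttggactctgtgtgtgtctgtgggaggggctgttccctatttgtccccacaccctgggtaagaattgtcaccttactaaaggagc
Gsta2, chr9:78347146-78347395, minus strand: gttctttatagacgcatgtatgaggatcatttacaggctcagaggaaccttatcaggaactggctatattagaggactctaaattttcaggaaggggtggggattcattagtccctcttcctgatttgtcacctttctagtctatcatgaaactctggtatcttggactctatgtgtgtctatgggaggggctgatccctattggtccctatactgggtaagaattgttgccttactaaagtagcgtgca
Gsta3, chr1:21240335-21240584, plus strand: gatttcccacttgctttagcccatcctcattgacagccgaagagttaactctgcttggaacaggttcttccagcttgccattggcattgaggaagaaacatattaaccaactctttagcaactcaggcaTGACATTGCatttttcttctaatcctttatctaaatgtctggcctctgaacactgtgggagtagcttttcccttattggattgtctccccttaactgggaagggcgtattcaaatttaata
Gstm5, chr3:107895604-107895853, plus strand: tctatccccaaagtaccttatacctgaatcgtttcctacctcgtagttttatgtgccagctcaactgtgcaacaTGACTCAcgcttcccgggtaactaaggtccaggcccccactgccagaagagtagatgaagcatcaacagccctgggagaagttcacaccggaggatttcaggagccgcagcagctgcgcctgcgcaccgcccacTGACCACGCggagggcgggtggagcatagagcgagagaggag
Gstp1, chr19:4037913-4038162, minus strand: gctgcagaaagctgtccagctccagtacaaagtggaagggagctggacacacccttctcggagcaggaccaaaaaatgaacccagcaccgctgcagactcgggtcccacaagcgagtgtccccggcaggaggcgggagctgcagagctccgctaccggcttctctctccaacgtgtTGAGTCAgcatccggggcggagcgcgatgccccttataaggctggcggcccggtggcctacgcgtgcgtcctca

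Searched on both strands, TGACNNNGC was found in the Gsta3 window (TGACATTGC, from 121 to 113 bases before the start) and in the Gstm5 window (TGACCACGC, from 42 to 34 bases before the start). It is present in 10.2% of the 32851 RefSeq promoter windows of this length. TGANTCA was found in the Gstm5 window (from 176 to 170 bases) and in the Gstp1 window (from 74 to 68 bases), against 6.75% of all windows. GCGTG, the core of the xenobiotic response element, was found in the windows of Gsta2, Gstm1, Gstm5 and Gstp1 and is present in 28.2% of all windows. In Gstm5 it overlapped both other motifs. None of these motifs was in the windows of Gsta1, Gstm2, Gstt1 and Gsto1. Over 247 aligned bases the Gsta1 and Gsta2 windows matched at 136, an identity of 55.1%. These matches describe letters within 250 bases and not binding, and the series holds no binding data.

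Transcript sequence limits how far some members can be told apart. Of the 31-base words in Gsta1 transcripts, 92.9% also occur in another gene of the GENCODE M21 transcripts, and 65.6% in another gene of the deposited table. For Gsta2 these shares were 60.7% and 60.2%. The pair had 523 words in common, 56.6% of those of Gsta1 and 44.7% of those of Gsta2. Gstp1 shared 38.5% of its words with its neighbour Gstp2, and Gstm1 shared 28.8% with other genes. The share was 0% for Gsta4 and Gsto1 and 0.47% for Gstt1, so the splitting of reads between copies bears little or not at all on these 3. For Gsta1 and Gsta2 the sum is safer than either value alone, but it does not remove the sharing with other genes. Gm10639 held 47.5% of the words of Gsta1 and 43.6% of those of Gsta2. For Gm3776, which is absent from the deposited table, these shares were 80.3% and 37.7%.

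All 10 fibroblast markers examined reached at least 1 TPM in all 30 libraries, and all 4 hepatocyte markers stayed under 1 TPM in every library. Of 6 keratinocyte markers 5 stayed under 1 TPM, Krt5 being listed at 0. Of 5 leukocyte markers 3 (Cd68, Adgre1 and Lyz2) reached 1 TPM in all libraries, while the pan-leukocyte marker Ptprc did not exceed 0.876 TPM. The libraries within a group correlated at 0.986 to 0.993. Library numbers ran consecutively within groups, so an effect of library handling and one of the compound cannot be told apart.

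In the 6 DMSO libraries the mu class made up most of the family's transcripts. Gstm1 was highest at 541 ± 29.5 TPM (mean ± SD, n = 6), followed by Gstp1 at 252 ± 23.2, Gstm2 at 181 ± 7.25, Gsta4 at 147 ± 19.96, Gstm5 at 108 ± 2.36, Gstt1 at 87.6 ± 6.78, Gsto1 at 61.7 ± 3.16 and Gsta3 at 16.2 ± 2.36 TPM. Gsta1 (1.78 ± 0.819 TPM) and Gsta2 (0.536 ± 0.334 TPM) were near the lower limit of the measurement, and Gsta2 exceeded 1 TPM in 1 of the 6 libraries. Among neighbours in this order, Gstm2 and Gsta4 overlapped in range over libraries, as did Gsta1 and Gsta2, and the other neighbours did not. The 10 members summed to 1397 ± 52.9 TPM, of which 59.5% ± 1.80 came from the mu class and 11.8% ± 1.22 from the alpha class.

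**Figure D1:**
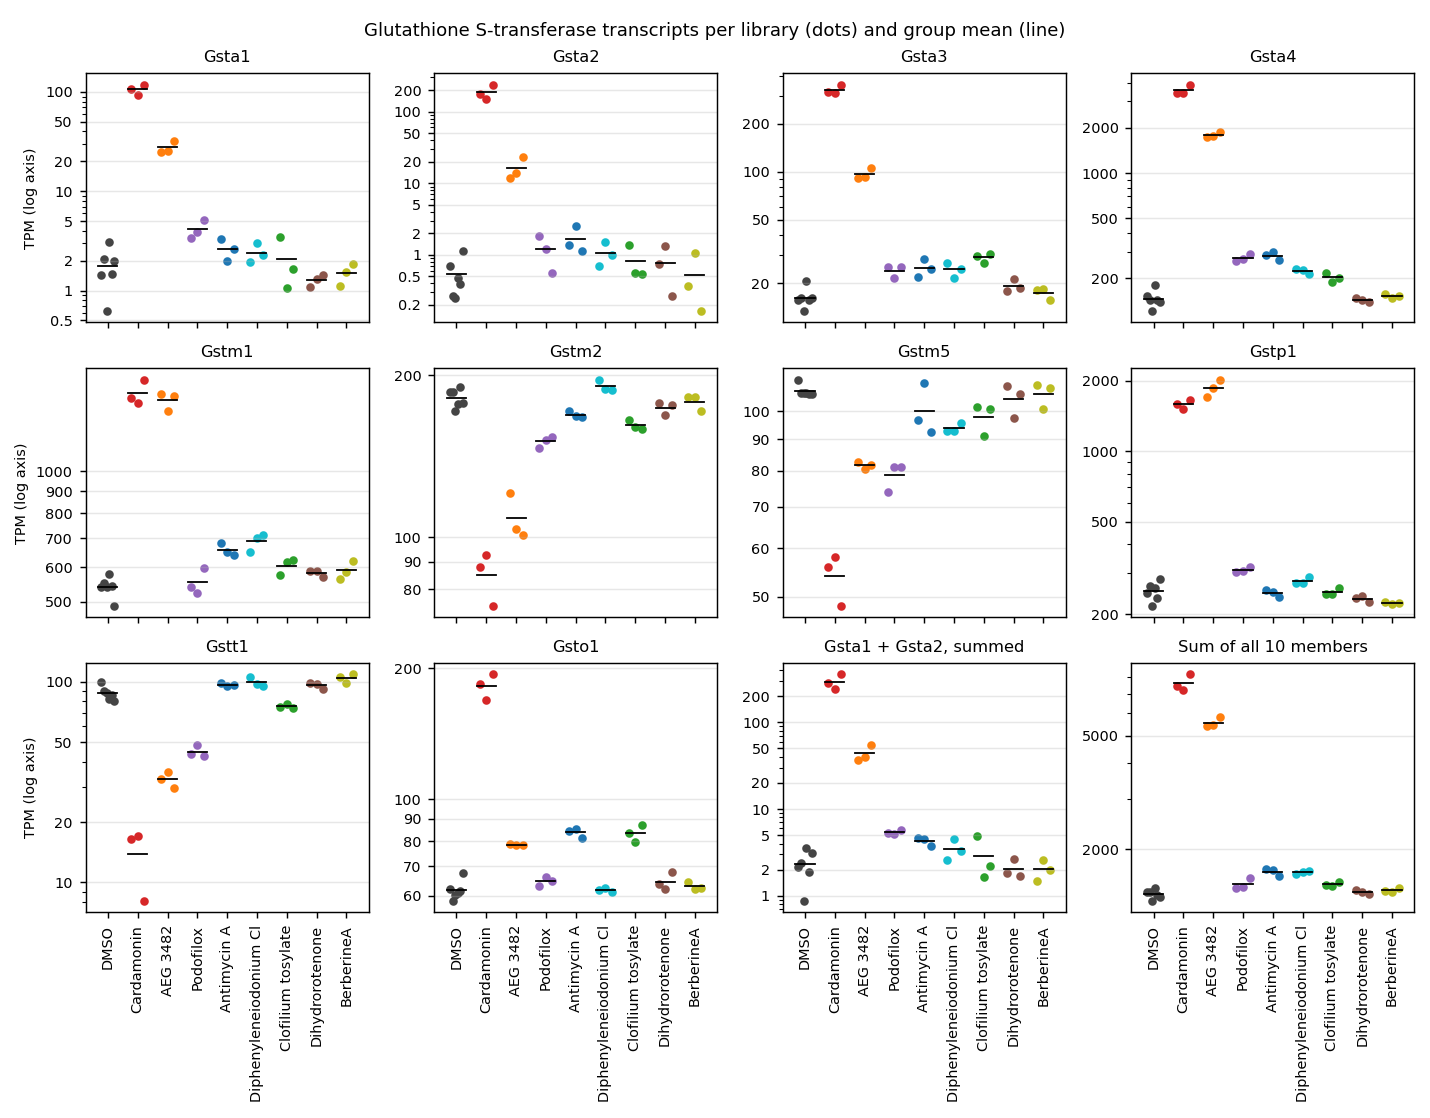
TPM (log axis, scaled per panel) of each member, of Gsta1 + Gsta2 and of all 10 members summed, with 1 dot per library and a line at the group mean, for DMSO (6 libraries) and 8 compounds (3 libraries each). The Cardamonin and AEG 3482 libraries lie above all DMSO libraries for the alpha-class genes, Gstm1, Gstp1 and Gsto1, and below all DMSO libraries for Gstm2, Gstm5 and Gstt1.

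After Cardamonin all 10 members differed from DMSO: the 4 alpha-class genes, Gstm1, Gstp1 and Gsto1 rose, and Gstm2, Gstm5 and Gstt1 fell (limma on log2(TPM + 1), Benjamini-Hochberg adjusted p below 0.05). Over all tested genes, 37.3% rose and 33% fell in this comparison, 70.3% in all, so being called is common here and the sizes carry the description. The median log2 fold change was 2.10 over the 10 members and 0.03 over all 13644 genes. After AEG 3482 these 7 genes also rose and these 3 fell, with a median of 1.97 against 0.10 over all genes, where 41.3% rose and 26.8% fell, 68.1% in all. Both comparisons use the same DMSO libraries, so the match of directions is not independent.

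Gsta4, which conjugates 4-hydroxynonenal and related products of lipid oxidation, was the most abundant member after Cardamonin. In DMSO it ranged from 121 to 182 TPM with a median of 144, against 3428, 3396 and 3877 TPM in the Cardamonin libraries and 1737, 1763 and 1866 TPM in the AEG 3482 libraries. The 3 groups did not overlap. The log2 fold change, on the log2(TPM + 1) scale used throughout, was 4.60 ± 0.08 (SE, limma adjusted p = 2.57e-24) for Cardamonin and 3.61 ± 0.08 (limma adjusted p = 2.60e-22) for AEG 3482.

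Gsta1 and Gsta2 encode the alpha-class subunits classically induced in liver by antioxidants and drugs. Summed, they ranged from 0.870 to 3.55 TPM (median 2.25) in DMSO, and stood at 282, 244 and 357 TPM after Cardamonin and at 36.8, 39.8 and 55.3 TPM after AEG 3482. All treated libraries lay far above the highest DMSO library, and all Cardamonin libraries above all AEG 3482 libraries. The sum rose by 6.51 log2 units with Cardamonin (limma adjusted p = 1.85e-18) and by 3.79 with AEG 3482 (limma adjusted p = 1.82e-13). As deposited, Gsta2 was at 174, 150.4 and 238 TPM after Cardamonin and Gsta1 at 108, 93.3 and 119 TPM, so that Gsta2, lower in mean in DMSO, was the higher of the pair there. After AEG 3482 the order was the reverse, with Gsta1 at 25.1, 25.7 and 32.4 TPM and Gsta2 at 11.7, 14.1 and 23.0 TPM. The deposited values depend on how reads with shared words were divided between the 2 genes. The part of this division in the change of order was not tested.

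Gsta3, known in mouse liver for conjugating the epoxide of aflatoxin B, ranged from 13.3 to 20.6 TPM (median 15.9) in DMSO. It reached 317, 312 and 353 TPM after Cardamonin and 90.8, 93.1 and 105 TPM after AEG 3482, with no overlap between the 3 groups. The rises were 4.26 ± 0.10 and 2.51 ± 0.10 log2 units (SE, limma adjusted p = 3.52e-22 and 2.61e-17).

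Gstp1, the pi-class enzyme, which is also known to bind the stress kinase JNK, ranged from 217 to 283 TPM (median 254) in DMSO. It stood at 1594, 1511 and 1655 TPM after Cardamonin and at 1712, 1867 and 2029.5 TPM after AEG 3482. Here AEG 3482 gave the higher level, and its libraries did not overlap those of Cardamonin. The rises were 2.66 ± 0.06 and 2.89 ± 0.06 log2 units (SE, limma adjusted p = 1.73e-22 and 1.27e-22). Its near copy Gstp2 rose by 3.17 and 2.54 log2 units and had a far lower level, at most 82.2 TPM.

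Gstm1, the main mu-class enzyme, ranged from 489 to 579 TPM (median 542) in DMSO. The Cardamonin libraries had 1478, 1439 and 1630.2 TPM and the AEG 3482 libraries 1513, 1377 and 1489 TPM. These groups overlapped with each other and lay above all other libraries. The rises were 1.48 ± 0.05 and 1.43 ± 0.05 log2 units (SE, limma adjusted p = 1.46e-18 and 5.85e-18).

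The other mu-class genes went the other way. Gstm2 ranged from 172 to 190.4 TPM (median 182) in DMSO, and stood at 88.0, 92.5 and 74.4 TPM after Cardamonin and at 121, 104 and 101 TPM after AEG 3482. Gstm5, whose window holds both motifs shown in capitals above, ranged from 106 to 113 TPM (median 107) in DMSO, and stood at 55.8, 58.1 and 48.3 TPM after Cardamonin and at 82.9, 80.7 and 81.8 TPM after AEG 3482. None of the treated libraries overlapped DMSO for either gene. The log2 fold changes were -1.09 and -0.74 for Gstm2 (limma adjusted p = 1.61e-15 and 6.70e-12) and -0.99 and -0.39 for Gstm5 (limma adjusted p = 2.50e-14 and 8.37e-07).

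Gstt1, the theta-class enzyme, which acts on small halogenated molecules, fell furthest among the members. It ranged from 80.2 to 99.2 TPM (median 86.9) in DMSO, and stood at 16.5, 17.0 and 8.09 TPM after Cardamonin and at 32.8, 35.5 and 29.6 TPM after AEG 3482. Cardamonin replicate 3 was the lowest library of all. The log2 fold changes were -2.64 ± 0.13 and -1.40 ± 0.13 (SE, limma adjusted p = 8.27e-16 and 3.91e-10), and the former was -2.32 without that library.

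Gsto1, the omega-class enzyme, which works as a thiol transferase and reduces dehydroascorbate, ranged from 58.3 to 67.5 TPM (median 61.0) in DMSO. It stood at 183, 169 and 193 TPM after Cardamonin, a rise of 1.54 ± 0.04 log2 units (SE, limma adjusted p = 1.40e-20). After AEG 3482 it stood at 78.6, 78.6 and 78.2 TPM, above all DMSO libraries but far nearer to them, a rise of 0.34 ± 0.04 (SE, limma adjusted p = 1.04e-07).

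These changes recast the family's make-up. The 10 members summed to 7626 ± 505 TPM (SD, n = 3) after Cardamonin, 5.46 times the DMSO mean, and to 5559 ± 240 TPM after AEG 3482, 3.98 times the DMSO mean. The alpha class supplied 54.9% ± 0.960 of the sum after Cardamonin and 34.7% ± 0.184 after AEG 3482. The mu class supplied 21.7% ± 0.292 and 29.7% ± 1.78, although its own summed level was 1.99 times that of DMSO in both groups. In level, the order after Cardamonin was Gsta4, Gstp1, Gstm1, Gsta3, Gsta2, Gsto1, Gsta1, Gstm2, Gstm5 and Gstt1, of which Gstp1 and Gstm1 overlapped in range, as did Gsta2 and Gsto1. After AEG 3482, Gstp1 (1869 ± 159 TPM) and Gsta4 (1788 ± 68.0 TPM) led with overlapping ranges.

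**Figure D2:**
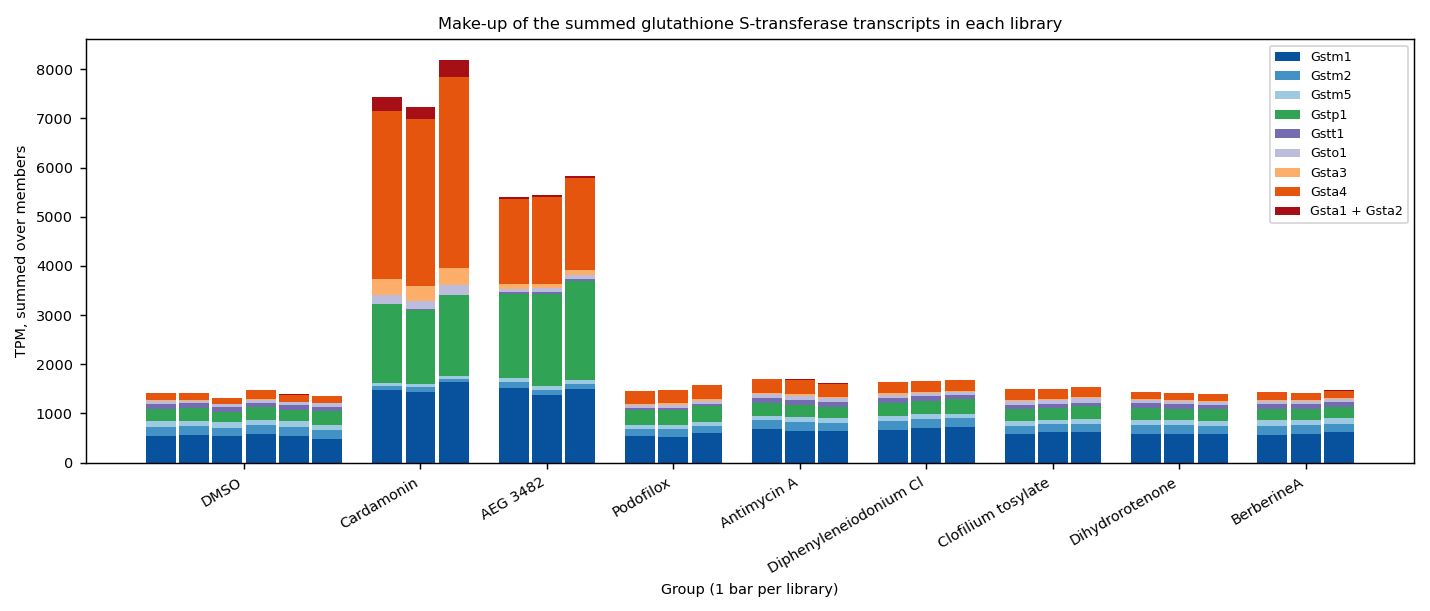
Stacked TPM of the members in each of the 30 libraries (linear axis from 0, 1 bar per library, Gsta1 and Gsta2 summed). Gsta4 is the largest block in the Cardamonin libraries (3567 TPM in mean), Gsta4 and Gstp1 are similar in the AEG 3482 libraries, and Gstm1 is the largest block in the other groups.

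The fibroblast markers moved in the Cardamonin group as well: their summed level was 6163 to 8029 TPM there, against 14046 to 16830.5 TPM in DMSO and 14691 to 16807 TPM after AEG 3482. In the other 6 compounds it ranged from 10678 TPM (Antimycin A) to 14390.1 TPM (Dihydrorotenone). Summed leukocyte markers were at 151 to 207 TPM in DMSO and lower than every DMSO library in all 8 compounds: at 109 to 128 TPM after Cardamonin, 115 to 124 TPM after AEG 3482, 85.0 to 97.5 TPM after Podofilox, 51.9 to 65.8 TPM after Antimycin A, 79.5 to 91.7 TPM after Diphenyleneiodonium Cl, 95.1 to 100.5 TPM after Clofilium tosylate, 116 to 121 TPM after Dihydrorotenone and 102 to 117 TPM after BerberineA. The 4 endothelial markers summed to 1.09 to 1.18 TPM after Cardamonin and 1.63 to 1.77 TPM after AEG 3482, below the 5.42 to 8.71 TPM of DMSO and the 4.98 to 8.01 TPM of the other 6 compounds. Tek ranged from 0.477 to 8.18 TPM over the 30 libraries, and the other 3 (Pecam1, Cdh5 and Kdr) stayed under 1 TPM in every library. Hepatocyte markers, of the tissue in which alpha-class enzymes are most abundant, were under 1 TPM throughout. In bulk RNA, fewer cells of a type and less RNA per cell cannot be told apart, and the part of the fibroblast, leukocyte and endothelial markers in the results was not tested.

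**Figure D3:**
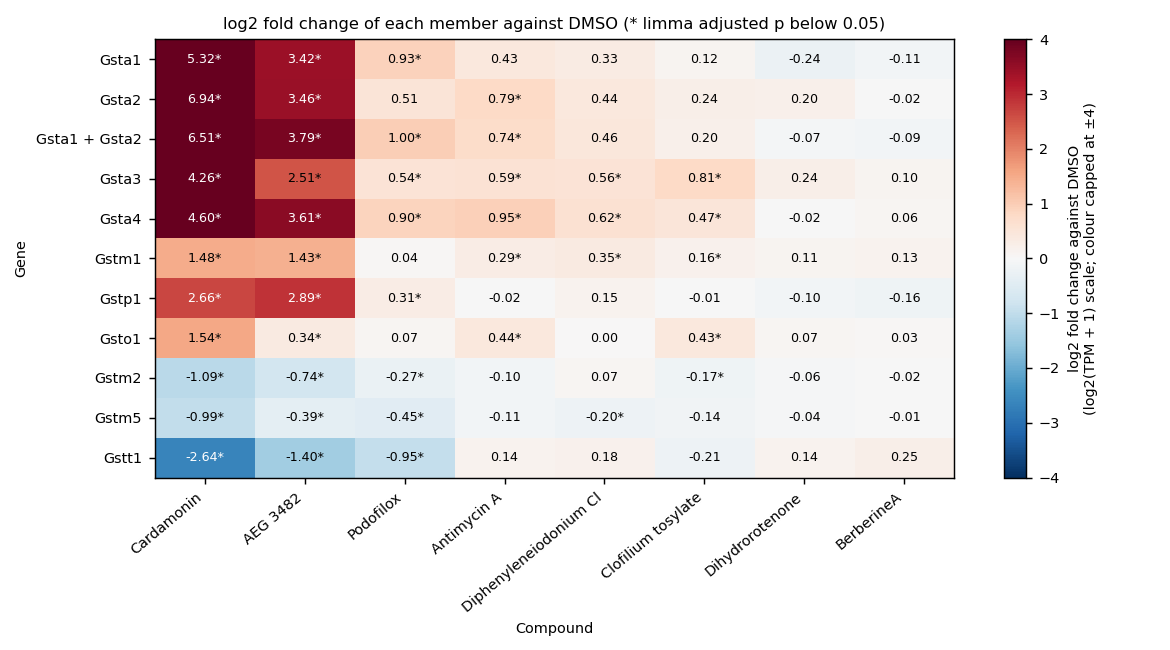
Log2 fold change (log2(TPM + 1) scale) of each member and of Gsta1 + Gsta2 in each compound against DMSO. Colour is capped at 4 in either direction, and a star marks a limma adjusted p below 0.05. Cardamonin and AEG 3482 have a star in every row, Podofilox in 7 of the 10 single genes, and Dihydrorotenone and BerberineA in none.

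Set directly against each other, Cardamonin and AEG 3482 differed in 9 of the 10 members (limma, adjusted over genes and the 28 pairs of compounds), where 53.2% of all tested genes differed. The doses are unstated, so these are differences between the 2 treatments as given. Cardamonin was higher in Gsta2 by 3.48 log2 units (95% interval 2.88 to 4.07), in Gsta1 by 1.91, in Gsta3 by 1.76 (1.52 to 1.99), in Gsto1 by 1.20 (1.10 to 1.30) and in Gsta4 by 0.99 (0.81 to 1.18). For Gsta1 + Gsta2 summed the difference was 2.72. It was lower in Gstt1 by 1.24, with a log2 difference of -1.24 (-1.54 to -0.94), and in Gstm5 (-0.59), Gstm2 (-0.35) and Gstp1 (-0.23, limma adjusted p = 0.00658). Gstm1 did not pass the test, with a difference of 0.05 and an interval of -0.07 to 0.18 (limma adjusted p = 0.535). The excess of Cardamonin over AEG 3482 thus ranged over the alpha class from 0.99 in Gsta4 to 3.48 in Gsta2. The Gsta2 value depends on how reads were divided with Gsta1, and for their sum the excess was 2.72. In Gstp1 the difference had the opposite sign.

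**Figure D4:**
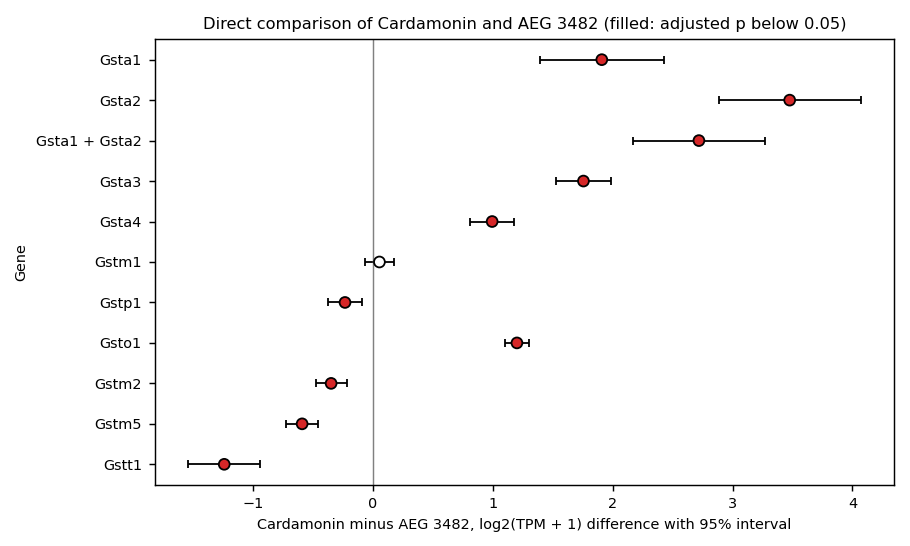
Difference between Cardamonin and AEG 3482 (Cardamonin minus AEG 3482, log2(TPM + 1) scale) for each member, with its 95% interval. Filled points passed an adjusted p below 0.05. All members but Gstm1 passed, with Gsta2 farthest to the right (3.48) and Gstt1 farthest to the left (-1.24). The Gsta1 and Gsta2 values depend on how reads were divided between them.

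After Podofilox 4 members rose (Gsta1, Gsta3, Gsta4 and Gstp1), 3 fell (Gstm2, Gstm5 and Gstt1) and 3 did not pass the test. Of all tested genes 26.2% rose and 20% fell, 46.2% in all. The median was 0.19 over members and 0.04 over all genes. Gsta4 stood at 262, 268 and 292 TPM, above all DMSO libraries (log2 fold change 0.90 ± 0.08, SE, limma adjusted p = 4.24e-10), and Gsta1 + Gsta2 at 5.24, 5.15 and 5.73 TPM (0.996, limma adjusted p = 8.86e-04). Gstt1 stood at 43.6, 48.4 and 42.4 TPM, below all DMSO libraries (-0.95 ± 0.13, SE, limma adjusted p = 8.20e-07). Gstm5 stood at 73.9, 81.2 and 81.2 TPM, a range that overlapped that of AEG 3482 and lay below DMSO (-0.45, limma adjusted p = 2.89e-07). Gstp1 rose by 0.31, Gsta3 by 0.54, and Gstm2 changed by -0.27. Gstm1, the most abundant member, had 540.0, 525 and 599 TPM and did not pass (0.04, limma adjusted p = 0.613).

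Podofilox and AEG 3482 differed in 9 of the 10 members, where 57.8% of all genes differed. AEG 3482 was higher in Gsta4 by 2.70 log2 units and in Gstp1 by 2.58, and its difference in Gstt1 was -0.45. The exception was Gstm5, with a difference of 0.06 (95% interval -0.08 to 0.19, limma adjusted p = 0.553).

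After Antimycin A 5 members rose (Gsta2, Gsta3, Gsta4, Gstm1 and Gsto1) and none fell, where 21.8% of all genes rose and 15.5% fell, 37.3% in all. The median was 0.36 over members and 0.03 over all genes. Gsta4 had 284, 299.6 and 265 TPM, above all DMSO libraries and overlapping those of Podofilox (0.95 ± 0.08, SE, limma adjusted p = 3.39e-10). Gsto1 had 84.6, 85.4 and 81.5 TPM (0.44 ± 0.04, SE, limma adjusted p = 9.67e-09), and Gstm1 had 685, 651 and 641 TPM (0.29, limma adjusted p = 8.82e-05), both above all DMSO libraries. Gsta3 rose by 0.59. Gstm2 had 171.2, 167.9 and 167.1 TPM, all below the lowest DMSO library (171.5 TPM), and did not pass (-0.10, limma adjusted p = 0.141). It was called lower with quantile normalization (-0.16, limma adjusted p = 0.0354). Gstm5 overlapped DMSO and did not pass (-0.11, limma adjusted p = 0.134), except without Antimycin A replicate 2 (-0.18, limma adjusted p = 0.0174). Gsta1 + Gsta2 stood at 4.67, 4.56 and 3.77 TPM, all above the highest DMSO library (3.55 TPM), and the sum rose by 0.74 (limma adjusted p = 0.0136). Without Antimycin A replicate 1 its adjusted p was 0.0570, and without replicate 2 it was 0.0502. The rise of Gsta2 alone (0.79, limma adjusted p = 0.0137) was lost without replicate 2 (limma adjusted p = 0.124). Summed leukocyte markers were lowest in this group, at 51.9 to 65.8 TPM.

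Diphenyleneiodonium Cl raised Gsta4, Gsta3 and Gstm1 and lowered Gstm5, where 14% of all genes rose and 11.7% fell, 25.7% in all. The median was 0.26 over members and 0.02 over all genes. Gsta4 had 232, 226 and 215 TPM (0.62 ± 0.08, SE, limma adjusted p = 1.00e-06), Gstm1 had 652, 702 and 714 TPM (0.35 ± 0.05, SE, limma adjusted p = 1.25e-05), and all of these libraries lay above DMSO. Gsta3 rose by 0.56. Gstm5 had 93.0, 92.9 and 95.6 TPM, below all DMSO libraries (-0.20, limma adjusted p = 0.00994). Gsto1 had 61.7, 62.3 and 61.2 TPM, within the DMSO range.

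Clofilium tosylate raised Gsta3, Gsta4, Gsto1 and Gstm1 and lowered Gstm2, where 10.9% of all genes rose and 12.5% fell, 23.4% in all. The median was 0.14 over members and 0.00 over all genes. Gsta3 had 29.6, 26.9 and 30.6 TPM, the highest mean outside Cardamonin and AEG 3482 (0.81 ± 0.10, SE, limma adjusted p = 1.03e-06). Gsto1 had 83.4, 79.5 and 87.3 TPM (0.43 ± 0.04, SE, limma adjusted p = 5.81e-08), a range that overlapped that of Antimycin A. The changes of Gstm1 (0.16, limma adjusted p = 0.0217) and Gstm2 (-0.17, limma adjusted p = 0.0250) were both lost without Clofilium tosylate replicate 2 (limma adjusted p = 0.0970 and 0.0875) and without replicate 3 (0.102 and 0.0901). Gstt1 had 74.4, 77.8 and 73.5 TPM, all below the lowest DMSO library (80.2 TPM), and did not pass (-0.21, limma adjusted p = 0.249). In a fit of only the 2 groups Gstt1 was called lower (limma adjusted p = 0.0423), and Gstm1 did not pass (limma adjusted p = 0.0584).

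No member passed the test after Dihydrorotenone or BerberineA, by limma. After Dihydrorotenone 4.95% of all tested genes rose and 9.43% fell, 14.4% in all. Of the genes called, 34.4% were thus higher, against 53.7% with median-ratio scaling, 47.2% with quantile normalization and 29.8% without the 20 most abundant genes. After BerberineA 12.6% rose and 9.16% fell, 21.7% in all. At an unadjusted p below 0.05 there were 2 members in each. These were Gsta3 (0.24, limma adjusted p = 0.110) and Gstm1 (0.11, limma adjusted p = 0.167) after Dihydrorotenone, and Gstp1 (-0.16, limma adjusted p = 0.0549) and Gstm1 (0.13, limma adjusted p = 0.0807) after BerberineA. Gsta4 had 148, 143 and 140.3 TPM after Dihydrorotenone and 157, 148 and 152 TPM after BerberineA, within the DMSO range in each. The medians over members were 0.02 and 0.01, against -0.03 and 0.02 over all genes. Set against each other, the 2 treatments differed in 0 of the 10 members by limma, where 9.22% of all genes differed.

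Antimycin A and Dihydrorotenone both block the respiratory chain, at different complexes. Compared directly they differed in 5 of the 10 members, where 20.4% of all genes differed. Antimycin A was higher in Gsta4 by 0.97 log2 units (95% interval 0.79 to 1.15), in Gsta1 by 0.67 (limma adjusted p = 0.0358), in Gsto1 by 0.37, in Gsta3 by 0.35 and in Gstm1 by 0.18. Gstt1 did not pass, with a difference of 0.01 (-0.29 to 0.31). Antimycin A and Clofilium tosylate differed only in Gsta4 among the members (0.48, 0.30 to 0.66), where 12.2% of all genes differed, and for Gsto1 the interval was -0.09 to 0.11. Over all 28 pairs of compounds, 192 of the 280 values of the members passed, 68.6%, against 39.6% over all genes and pairs. Pairs with Cardamonin or AEG 3482 had 9 or 10 members called each, where 53.2% to 64.3% of all genes differed. The other pairs had 0 to 7, where 5.71% to 44.2% of all genes differed. The same libraries enter many pairs, so the pairs are not independent. Gsta4 differed in 25 of the 28 pairs, the most of any member, and Gsta2 in 14, the fewest.

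Taken by gene, Gsta4 differed in the most pairs of compounds, 25 of the 28. Its mean fell in the order Cardamonin, AEG 3482, Antimycin A, Podofilox, Diphenyleneiodonium Cl, Clofilium tosylate, BerberineA, DMSO and Dihydrorotenone. Antimycin A overlapped with Podofilox, Diphenyleneiodonium Cl with Clofilium tosylate, and the last 3 in turn, and the remaining neighbours did not overlap. For Gsto1 the order was Cardamonin, Antimycin A, Clofilium tosylate and AEG 3482, of which Antimycin A and Clofilium tosylate overlapped, followed by 5 groups that overlapped in turn. Gstt1 fell in the order DMSO, Clofilium tosylate, Podofilox, AEG 3482 and Cardamonin, with no overlap between any of these neighbours, and the other groups lay above DMSO in mean.

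Over the 9 group means of log2(TPM + 1), Gsta1 and Gsta4 had a Pearson correlation of 0.99, Gsta1 and Gstm2 one of -0.98, and Gstt1 and Gstm5 one of 0.96. These are descriptions over 9 points, which share libraries between genes and are spread mainly by the Cardamonin and AEG 3482 groups. By the same measure over 10207 genes, the genes most like Gsta4 were Hmga1, Heph and Hmga1b, and those most like Gstm1 were Nqo1 (0.9965), Mdm2 and Cbr3. Those most like Gstp1 were Gpr108, Cst6 and Layn, those most like Gstt1 were Cd55, Hsdl2 and Atg4a, and those most like the Gsta1 + Gsta2 sum were Ccdc88a, Akr1a1 and Procr. Gsto1 had the least close match, Slc25a5 (0.9873).

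Counts of called genes in the related lists stand against 70.3% of all tested genes called after Cardamonin, 68.1% after AEG 3482, 46.2% after Podofilox and 37.3% after Antimycin A. Of 16 other cytosolic or mitochondrial family genes 11 were tested, and after Cardamonin 3 rose (Gm10639, Gstp2 and Gstm4), 4 fell (Gstm7, Gstt3, Gstz1 and Gstk1) and 4 did not pass, with 2 to 5 rising and 3 or 4 falling under other scalings, so the share called was near that over all genes. After AEG 3482 4 rose and 2 fell, with 3 or 4 rising and 3 to 5 falling under the other scalings tried (median-ratio, quantile, or without the 20 most abundant genes). The median was 0.13 after Cardamonin, and after AEG 3482 it ranged from -0.11 to 0.07 over the scalings. Gm10639, which shares words with Gsta1 and Gsta2, rose by 3.51 and 2.02, and passed the filter on low values only through these 2 groups. Gstt2 showed another pattern than its relative Gstt1: it had 17.1 to 23.6 TPM after Antimycin A and 17.9 to 20.7 TPM after Diphenyleneiodonium Cl against 8.01 to 10.4 TPM in DMSO, with rises of 0.96 and 0.97. It also rose after BerberineA (0.73), Dihydrorotenone (0.42) and Clofilium tosylate (0.38), and fell after AEG 3482 (-0.64).

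The membrane-bound MAPEG family is separate and includes transferases. It had 1 of 5 tested genes called after AEG 3482 (Mgst2, -0.91), and 3 to 5 under the other scalings. After Cardamonin 3 of the 5 rose (2 under the other scalings) and 1 fell. Mgst1 changed by 0.78 and Mgst3 by a log2 fold change of -2.14, from 24.3 to 27.3 TPM in DMSO to 4.75 to 5.39 TPM. Mgst1 and Mgst3 did not pass after AEG 3482 (-0.02 and -0.13).

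Genes that supply glutathione rose with the induced transferases. All 6 (Gclc and Gclm, the subunits of glutamate-cysteine ligase, Gss, glutathione synthetase, Gsr, glutathione reductase, and Slc7a11 and Slc3a2, the cystine importer) rose after Cardamonin, AEG 3482, Podofilox and Antimycin A. The medians were 3.56, 2.66, 0.75 and 0.45. Under the other scalings 5 of the 6 rose after Antimycin A, and 5 or 6 after Podofilox. After Clofilium tosylate 4 of the 6 rose and after Diphenyleneiodonium Cl 3, where 10.9% and 14% of all genes rose. None of the 6 fell after these compounds. Gclm went from 92.3 to 122 TPM in DMSO to 1519 to 1622 TPM after Cardamonin and 975 to 1077 TPM after AEG 3482. After Dihydrorotenone 4 of the 6 fell, where 9.43% of all genes fell, and Slc7a11 had a log2 fold change of -0.52. After BerberineA 2 fell, where 9.16% of all genes fell, and Slc7a11 had -0.45. All 5 NRF2 reference genes (Hmox1, Nqo1, Osgin1, Srxn1 and Txnrd1) rose after Cardamonin and after AEG 3482, with medians of 3.25 and 2.83, and 4 of the 5 after Podofilox. Antimycin A raised 2 of the 5, Diphenyleneiodonium Cl and Clofilium tosylate raised 1 each, and these 3 compounds lowered none. Of all tested genes 21.8%, 14% and 10.9% rose there, so a count of 1 of 5 is near the share over all genes. Dihydrorotenone lowered 3 of the 5, with a median of -0.29, where 9.43% of all genes fell, and 3 under each other scaling as well. After BerberineA 4 of the 5 fell, where 9.16% of all genes fell. Nqo1 rose by 0.21 there, a call that no other scaling kept.

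Among 6 tested pumps and exporters of conjugates, Abcc1 and Abcc4 rose after Cardamonin (3.04 and 3.24) and AEG 3482 (2.70 and 2.43), while Abcg2 (-0.77) and Abcc5 (-0.62) fell after AEG 3482. In all 3 of the 6 rose in each group, and 2 after AEG 3482 under each other scaling. After Cardamonin 1 fell, and 2 or 3 under the other scalings. Of the 9 tested genes listed for the mercapturate pathway, 1 rose and 4 fell after Cardamonin, and 2 rose and 5 fell after AEG 3482. Of all tested genes 70.3% and 68.1% were called there. Ggt1, a gamma-glutamyltransferase that takes off the first residue, rose by 1.50 and 0.66, its relative Ggt5 changed by -1.89 and -1.03, and Dpep1, a dipeptidase of the following step, by -1.74 and -1.08. Nat8, the acetyltransferase of the last step, changed by -0.97 and -1.29 in these groups and rose in the other 6 compounds, by 1.29 after Antimycin A, 0.76 after Podofilox, 0.63 after Dihydrorotenone, 0.46 after Clofilium tosylate, 0.45 after Diphenyleneiodonium Cl and 0.40 after BerberineA.

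**Figure D5:**
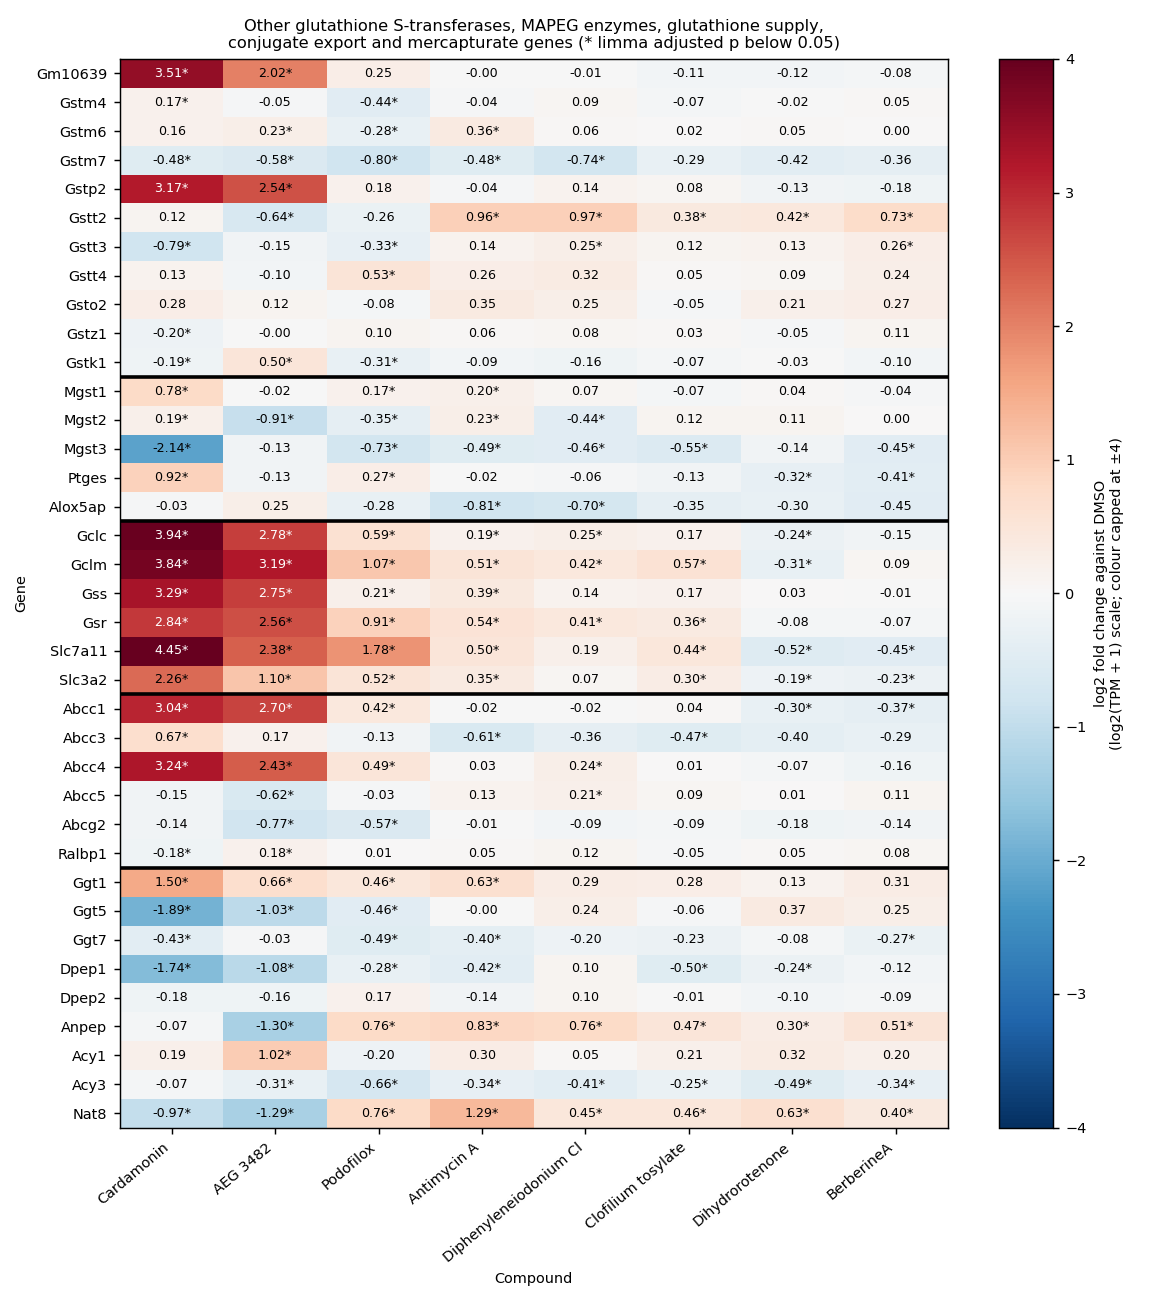
Log2 fold change (log2(TPM + 1) scale, colour capped at 4 in either direction) of the tested genes in 5 related lists, separated by black lines. The lists are other glutathione S-transferases, the MAPEG family, glutathione supply, conjugate export and the mercapturate pathway. A star marks a limma adjusted p below 0.05. The 6 supply genes carry a star in each of the first 4 columns, and the mercapturate genes move in both directions.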

How the data were processed

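Total RNA of mouse tail fibroblasts was sequenced in 30 libraries. Per the submitters' processing notes, reads were checked with FastQC and quantified with kallisto 0.43.1, with mm10 as the build. Per the series text, the authors then used tximport and DESeq2. The deposited table holds TPM made by the authors. TPM is relative to each library's total and keeps no sequencing depth, so the depth is unknown, no counting interval can be given and precision was judged from replicates. Summed over the table, a library held 927024 to 937134 TPM. Groups follow the treatment label. The series text speaks of 5 DMSO replicates, while the labels name 6, all of which were used.

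Identifiers were matched to GENCODE M21. Values were taken as log2(TPM + 1), which understates changes of low genes, and genes reaching 1 TPM in 3 or more libraries (13644) entered a fit of all groups in limma (version 3.58.1, R 4.3.3), 1 mean being fitted per group, with an intensity trend and Benjamini-Hochberg adjustment within each comparison (threshold 0.05). The 28 direct pairs were adjusted over genes and pairs. The Gsta1 + Gsta2 sum replaced both genes in a separate fit. The script was tested on simulated data. All members and the sum are named, any gene of the related lists may be named, and genes of like pattern are the 3 with the highest correlation of group means. The members and lists were chosen with earlier results of these data known. Alternatives were the pseudocount, the filter, the scaling, the trend, the samples fitted, a replicate block and leaving out each library. The replicate numbers did not pair the libraries: deviations of same-numbered libraries had a median correlation of 0.00799 over 108 pairs, 4 of them over 0.1.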

Additional observations from a re-analysis of the deposited data

Results flagged for a closer look

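Among the 6 DMSO libraries, Gstm5 in replicate 1 stood apart at 112.5 TPM, the highest of the group, while the others had 106 to 107 TPM. Its gap to the next library was 0.8925 of the group's range, above Dixon's 95% critical value for 6 libraries. A gap above the critical value arises by chance in about 1 in 20 groups, and 10 members were examined.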

How the results depend on the processing

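No value changed direction in a way that reversed a call. Of 41 member changes called against DMSO among 80, 3 were lost under at least 1 omission of a library and 2 under another alternative; Gsta2 after Antimycin A and Gstm1 and Gstm2 after Clofilium tosylate account for them. The count of changed members after BerberineA was 0, and 1 with a filter at a mean of 5 TPM, quantile normalization, rescaling without the 20 most abundant genes, or a fit of only the 2 groups. After Dihydrorotenone it was 0, and 1 with median-ratio scaling and with the replicate block (Gsta3, 0.34, limma adjusted p = 0.0405). The block moved no other count of members by over 1.5 times. Leaving out single libraries gave counts of 0 to 1 for BerberineA (1 without DMSO replicate 3, 4 or 5) and for Dihydrorotenone (1 without DMSO replicate 4), 3 to 5 for Clofilium tosylate, 5 to 6 for Antimycin A, 4 to 5 for Diphenyleneiodonium Cl, 7 to 8 for Podofilox and 10 to 10 for Cardamonin and AEG 3482. The Gsta1 + Gsta2 sum after Antimycin A ranged from 0.58 to 0.84 on omission, with an adjusted p of 0.0570 (0.69) without Antimycin A replicate 1 and 0.0502 (0.70) without replicate 2; the cause of these shifts was not tested. Of the genes called after Dihydrorotenone 34.4% were higher, against 53.7% with median-ratio scaling, 47.2% with quantile normalization and 29.8% without the 20 most abundant genes. Sequencing depth is unknown, so the counting error of low values such as those of Gsta1 and Gsta2 in DMSO cannot be given.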
